A study of Mus musculus with 8 samples.

Results

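The constitutive proteasome subunits are the 40 genes whose symbol starts with Psma, Psmb, Psmc, Psmd or Psme followed by a number, without the interferon-inducible catalytic subunits Psmb8, Psmb9 and Psmb10. They were found by symbol among 35072 genes and fall into 16 core genes (Psma and Psmb), 20 base and lid genes (Psmc and Psmd) and 4 activator genes (Psme). Their RNA was measured by polyA RNA-seq in wildtype mouse CD8 T cells isolated as naive cells from spleen and lymph nodes. Both groups received 18 h of activation by anti-CD3, anti-CD28 and IL-12. Then 4 libraries' cells were exposed to formate at 2 mM over 24 h, and 4 libraries' cells to the vehicle control, PBS. Formate is a small carboxylate that enters one-carbon metabolism. The labels do not say whether the libraries of a group came from separate mice or cultures, and p-values here refer to the spread among these 8 libraries, which may be technical.

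The proteasome degrades proteins tagged with ubiquitin. Its core is a barrel of stacked rings: alpha subunits (Psma) form the outer rings and gate the channel, and beta subunits (Psmb) form the inner rings, where Psmb5, Psmb6 and Psmb7 carry the active sites. A regulatory particle caps the barrel. Its base holds the ATPases (Psmc) that unfold substrates, and its lid holds the deubiquitinase Psmd14, which removes the ubiquitin chain. Psme1 and Psme2 form an alternative cap induced by interferon, Psme3 forms a related cap in the nucleus, and Psme4 forms a single-chain cap. T cells enlarge their protein turnover when activated, and interferon induces Psmb8, Psmb9 and Psmb10, which can take the places of the constitutive catalytic subunits.

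Levels are given as CPM, the count of a gene per 1000000 counts of its library after TMM scaling, and every change is formate over PBS. Libraries held 29361824 to 38010202 counts with formate and 30275204 to 41392932 with PBS. The summed level of 7 T cell markers, with Cd8a and Cd8b1 among them, was 1980 to 2350 CPM with formate and 1930 to 2560 CPM with PBS. Cd8a averaged 550 CPM in both groups, and Cd8b1 averaged 256 CPM with formate and 272 CPM with PBS. Markers of CD4 T cells summed to 12.8 to 22 CPM with formate and 12.8 to 20.5 CPM with PBS. B cell markers summed to 154 to 171 CPM with formate and 167 to 178 CPM with PBS, most of it Ighm, and NK, myeloid and erythroid markers stayed under 3 CPM in every library; stromal markers, mostly Pecam1, summed to 17.6 to 23.2 CPM with formate and 17.5 to 24.3 CPM with PBS. The mitochondrial share was 0.56 to 0.906% with formate and 0.414 to 0.566% with PBS, and its part in the results was not tested. The first principal component, with 51.2% of the variance, set formate replicates 1 and 2 and PBS replicates 1 and 2 apart from the other 4 libraries; their title codes run from 10 to 14, against 1 to 8 for the others. Each formate library has 1 PBS library with the neighbouring title code and the same replicate number here. Values of these pairs are given beside the unpaired ones, because neighbouring libraries deviated together; libraries of the same set that are not neighbours did so too, and for 2 of the 4 pairs about as much as neighbours did.

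Changes with formate were small for every subunit class. No member passed an adjusted p of 0.05 in the unpaired edgeR quasi-likelihood test (0 of 40, smallest adjusted p 0.998), none had an unadjusted p under 0.05, and DESeq2 called none. Across all 13299 genes tested, the same unpaired test called 0.00752% higher and 0% lower, 4.77% had an unadjusted p under 0.05, and DESeq2 called 0.143%. No member had formate and PBS ranges free of overlap, beside 2.44% of all genes higher and 1.85% lower. The median log2 change was 0.07 for the core, with 13 of 16 genes positive, -0.05 for the base and lid, with 6 of 20 positive, and -0.03 for the activators, with 2 of 4 positive. The median over all genes tested was -0.01. With 1 library left out at a time, the core median ran from 0.01 (without PBS replicate 3) to 0.13 (without formate replicate 3), with 0.03 without formate replicate 2. The base and lid median ran from -0.09 (without formate replicate 4) to 0.03 (without formate replicate 1) and was 0.003 without PBS replicate 4, so its direction rests on single libraries. The activator median ran from -0.06 (without formate replicate 3) to 0.02 (without formate replicate 1). In these bulk libraries, fewer cells of a type and less RNA per cell cannot be told apart.

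The fit with the pairs as a replicate block called 6 members. Core genes Psma3 and Psma5 rose (2 of 16), base and lid genes Psmc6 and Psmd14 rose and Psmd2 and Psmd3 fell (4 of 20), and no activator passed (0 of 4). This fit called 5.35% of all genes higher and 7.52% lower, so a count of 4 higher and 2 lower among 40 members is read against that background. By class, the median log2 changes of the blocked fit were 0.07, -0.05 and -0.03 for core, base and lid, and activators. Of the 38 members with counts above a trace, 10 were higher with formate in 4 of 4 pairs and 6 were lower in 4 of 4, beside 16% and 19.5% of all genes. The other 22 differed in direction between pairs. The 10 were 7 of the 14 core genes and 3 of the 20 base and lid genes, and the 6 were 5 base and lid genes and the activator Psme3.

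**Figure D1:**
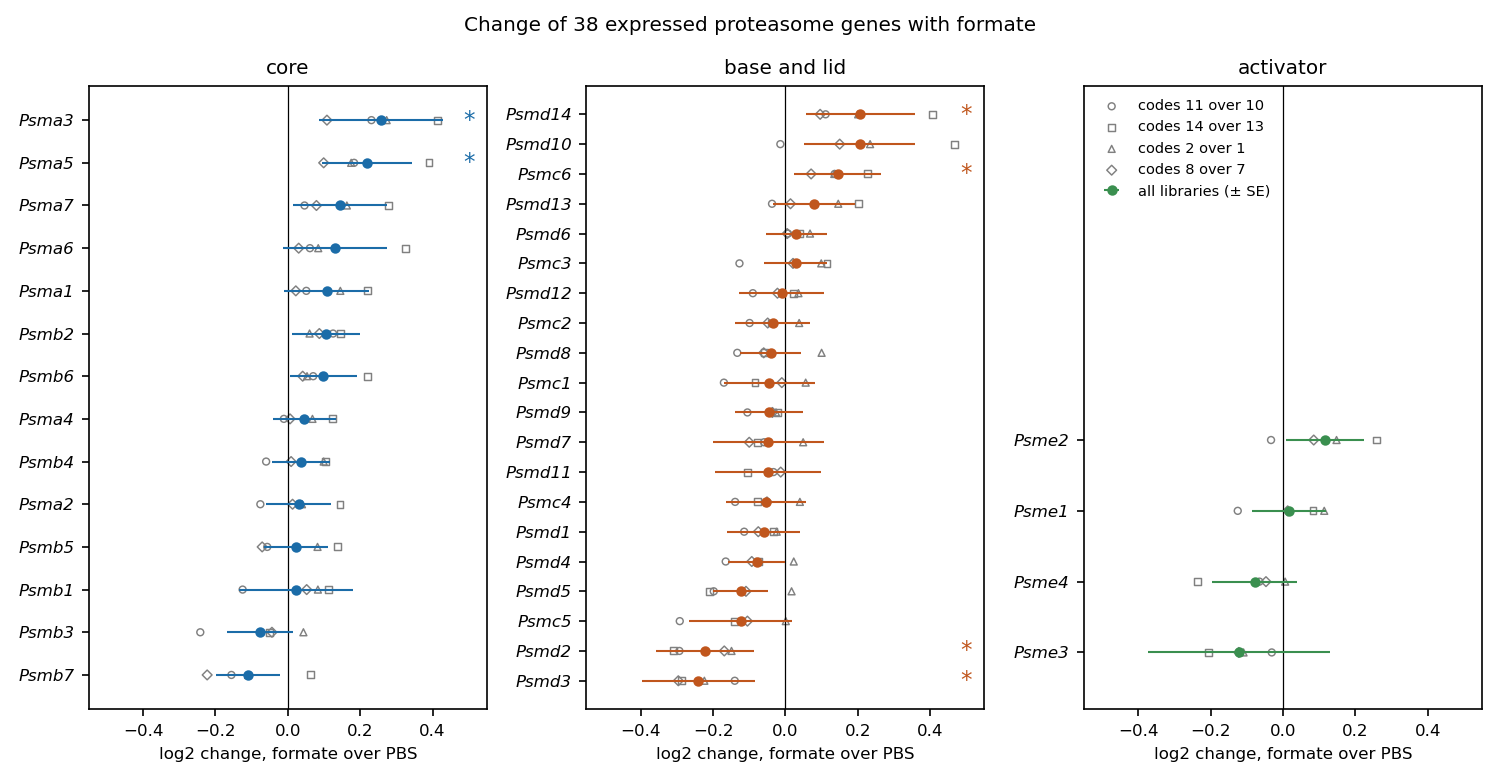
Log2 change of formate over PBS for the 38 expressed proteasome genes, in panels for core, base and lid, and activators; filled points with bars are the unpaired edgeR estimate ± SE, open grey markers are the 4 pairs, and an asterisk marks the 6 genes past an adjusted p of 0.05 with the replicate block. Core points lie mostly right of 0 (median 0.07) and base and lid points mostly left of it (median -0.05).

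The blocked calls depended on the setting. With GC offsets, 3 core genes were higher, 2 base and lid genes were lower and 1 activator was lower, beside 3.73% of genes called higher and 6.22% lower (9.95% in all). With library size as the only scaling, 6 core and 3 base and lid genes were higher and 2 base and lid genes were lower, beside 11.9% of genes. Without the pair of codes 1 and 2, 1 base and lid gene (Psmd2) was lower and no member was higher, beside 2.55% of genes. The background was 5.35% without codes 7 and 8, 10.3% without codes 10 and 11 and 3.82% without codes 13 and 14.

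The pairs did not move alike. The core median was 0.02, 0.14, 0.08 and 0.03 in pairs 1 to 4, with 8, 14, 14 and 12 of 16 genes higher with formate. The base and lid median was -0.11, -0.05, 0.04 and -0.04, with 3, 7, 15 and 6 of 20 genes higher. Pair 3 thus had the opposite sign for base and lid from the other 3 pairs, while the core median was positive in all 4. The median over all genes lay between -0.03 and 0.01 in each pair. The interaction of formate with the library set (codes 10 to 14 against 1 to 8) called no member (smallest adjusted p of a member 0.944, edgeR), beside 0.0677% of all genes.

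The span from the lowest to the highest PBS library was wider than the formate change for 37 of the 38 expressed members. This sets a span over 4 libraries against a difference of group means, and the share over all genes was not computed. The count cannot be read as particular to these genes. The highest PBS library exceeded the lowest by 1.07-fold (Psmd5) to 1.97-fold (Psme3), with a median of 1.25-fold. Mean log2 PBS levels were higher in codes 10 to 14 than in codes 1 to 8 for 12 of 14 core genes, 7 of 20 base and lid genes and 2 of 4 activators. The share over all genes was not computed here either, so these counts cannot be read as particular to the classes. For the core, the median log2 deviation was 0.05, -0.02, -0.18 and 0.04 in PBS replicates 1 to 4. Replicate 4 (code 7) thus lay with codes 10 and 13, and replicate 3 (code 1) lay lowest. The log2 difference of PBS libraries of codes 10 to 14 minus those of codes 1 to 8 was 0.29 for Psma3 and -0.42 for Psmd3. Each library set holds 2 libraries of each group.

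Among the alpha ring genes, the median log2 change was 0.12 and 7 of 8 were positive. Psma3 (chr12:70974621-70996347, GRCm38, plus strand, protein-coding), an alpha ring subunit, had 306, 302, 202 and 256 CPM in formate replicates 1 to 4, against 260, 226, 167 and 238 CPM in the PBS libraries of the same pairs. It was higher with formate in 4 of 4 pairs, while the group ranges overlapped. Formate replicate 3 lay below 3 of the 4 PBS libraries, and formate replicate 4 lay below PBS replicate 1. The mean of Psma3 was 266 ± 48.7 CPM with formate and 223 ± 39.9 CPM with PBS (SD, n = 4 each). The unpaired log2 change was 0.26 (SE 0.17, edgeR adjusted p 0.998), and with the replicate block Psma3 rose by 0.26 (SE 0.05, adjusted p 0.00578). Without the pair of codes 1 and 2 the blocked adjusted p was 0.0638. Of the 31-base words in Psma3 transcripts, 27.3% also occur in other genes, chiefly Gm13835, so part of its counts could be shared; with the counts of both genes summed, the blocked log2 change was 0.23 (SE 0.05, adjusted p 0.00906).

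Psma5 (chr3:108256926-108279974, plus strand), another alpha ring subunit, had 277, 331, 231 and 271 CPM with formate, against 244, 253, 205 and 253 CPM with PBS. Each formate library exceeded its pair, and the largest step was in pair 2. Its unpaired log2 change was 0.22 (SE 0.13), and with the block it rose by 0.21 (SE 0.05, edgeR adjusted p 0.0137). That call was lost without the pair of codes 1 and 2 (adjusted p 0.0798) and without the pair of codes 13 and 14 (adjusted p 0.0815). Its sequence is largely shared with copies (64% of 31-base words), but those copies held a mean of 3.42 counts. Psma1, Psma6 and Psma7 were also higher in 4 of 4 pairs with unpaired log2 changes of 0.11, 0.13 and 0.14 and did not pass in either fit. In other blocked settings, Psma7 passed with GC offsets (edgeR adjusted p 0.0494), with library size only (0.0229) and without codes 10 and 11 (0.0466). Psma1 and Psma6 passed with library size only (0.0493 and 0.0499). Psma2 and Psma4 were at 0.03 and 0.05. Psma8, the testis-specific alpha subunit, had 2 to 14 counts per formate library and 4 to 16 per PBS library.

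The beta ring genes had a median log2 change of 0.03, and none of 8 passed in either fit. The 3 catalytic subunits showed no shared direction. Psmb5, which carries the chymotrypsin-like site, had 200, 227, 195 and 210 CPM with formate, against 208, 206, 185 and 220 CPM with PBS. It was higher with formate in 2 of 4 pairs, and the group means were within 1 SD of each other, at 208 ± 14 CPM with formate and 205 ± 14.9 CPM with PBS (n = 4 each). Psmb6, the caspase-like subunit, had 220, 250, 206 and 239 CPM with formate, against 209, 215, 199 and 232 CPM with PBS. It was higher in 4 of 4 pairs, with an unpaired log2 change of 0.10 (SE 0.09) and a blocked adjusted p of 0.182. Psmb7, the trypsin-like subunit, had 187, 200, 188 and 202 CPM with formate, against 208, 192, 203 and 236 CPM with PBS, and was higher in 1 of 4 pairs (log2 change -0.11, SE 0.09, blocked adjusted p 0.174). Its exons overlap Nek6 on the opposite strand over 253 bases, and no strand setting is given in the sources used here, so the Psmb7 values are uncertain.

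The noncatalytic beta subunit Psmb3 had 209, 224, 205 and 228 CPM with formate, against 247, 232, 199 and 235 CPM with PBS, with a log2 change of -0.08 (SE 0.09) and 1 of 4 pairs higher. Psmb1, Psmb2 and Psmb4 had log2 changes of 0.02, 0.11 and 0.04, and Psmb2 passed with the block and library size only (edgeR adjusted p 0.048). Psmb11, the catalytic subunit of the thymic cortex, had 7 to 20 counts per formate library and 7 to 24 per PBS library, so its fitted change of 0.19 (SE 0.46) carries little precision.

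In the base, the median log2 change of the 6 ATPase genes was -0.04, with 2 of 6 positive. Psmc6 (chr14:45329788-45349705, plus strand) had 244, 260, 194 and 231 CPM with formate, against 222, 222, 176 and 220 CPM with PBS. All 4 pairs were higher with formate, and PBS replicate 3 lay apart below the other 3 PBS libraries. Its unpaired log2 change was 0.14 (SE 0.12), and the blocked fit called it higher by 0.14 (SE 0.04, edgeR adjusted p 0.0451). The call was lost when any 1 pair was left out, with adjusted p-values of 0.0707 to 0.172, and with a correction for GC content, which took the log2 change to 0.07 (adjusted p 0.332). Psmc5 had the largest negative value of the ATPases, -0.12 (blocked adjusted p 0.0882), and Psmc1, Psmc2, Psmc3 and Psmc4 lay between -0.05 and 0.03.

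Among the 14 Psmd genes the median was -0.05, with 4 positive, and the called members split. Psmd14 (chr2:61711694-61800376, plus strand), the lid deubiquitinase, had 289, 323, 215 and 262 CPM with formate, against 268, 244, 187 and 246 CPM with PBS. It was higher in 4 of 4 pairs, by most in pair 2. Its mean was 272 ± 45.4 CPM with formate and 236 ± 34.3 CPM with PBS (SD, n = 4 each), with an unpaired log2 change of 0.21 (SE 0.15) and a blocked one of 0.20 (SE 0.05, edgeR adjusted p 0.0209). With the GC correction the blocked log2 change was 0.09 (adjusted p 0.299), and without the pair of codes 1 and 2 or of codes 13 and 14 the adjusted p was 0.114 and 0.116.

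Psmd2 and Psmd3 fell in the blocked fit. Psmd2 (chr16:20651652-20663414, plus strand), a large scaffold of the base that binds shuttle factors, had 338, 355, 480 and 437 CPM with formate, against 415, 440, 532 and 492 CPM with PBS. Each formate library was below its pair, although formate replicate 3 exceeded PBS replicates 1 and 2. Its mean was 403 ± 67.2 CPM with formate and 470 ± 52.4 CPM with PBS (SD, n = 4 each). The unpaired log2 change was -0.22 (SE 0.14), and the blocked one was -0.23 (SE 0.05, edgeR adjusted p 0.00684). Psmd2 passed in every blocked setting run, with adjusted p-values of 0.00684 to 0.0441. Psmd3 (chr11:98682554-98695979, plus strand), a lid scaffold subunit, had 214, 227, 297 and 276 CPM with formate, against 236, 277, 347 and 339 CPM with PBS. All 4 pairs were lower, with an unpaired log2 change of -0.24 (SE 0.16) and a blocked one of -0.24 (SE 0.05, edgeR adjusted p 0.00501), which was 0.0607 without the pair of codes 1 and 2. For both genes, the libraries of codes 1 to 8 stood above those of codes 10 to 14 in each group.

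**Figure D2:**
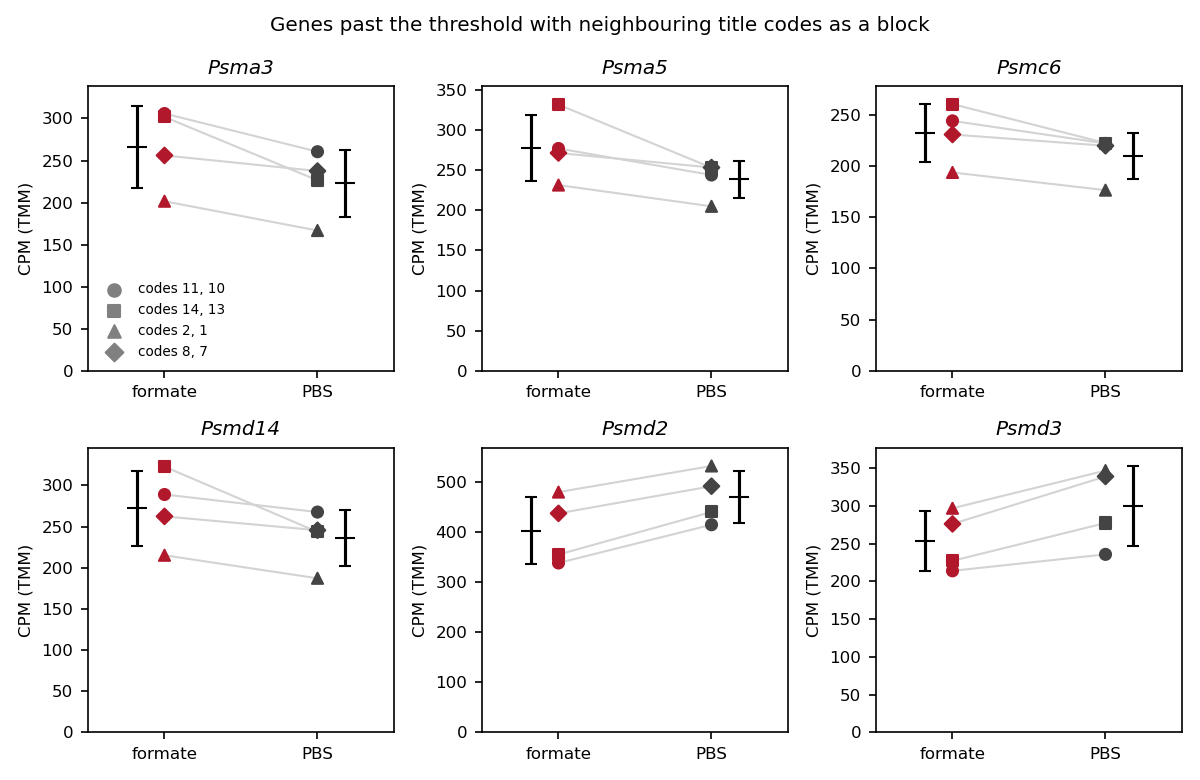
CPM of the 6 members past the threshold in the blocked fit, per library; formate is on the left and PBS on the right of each panel, lines join the pairs, and the bars beside the points are the mean ± SD of 4 libraries. Lines run lower on the PBS side for Psma3, Psma5, Psmc6 and Psmd14 and higher on it for Psmd2 and Psmd3, while the 2 groups' points overlap in every panel.

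The 3 assembly chaperones with Psmd symbols, which guide ATPase assembly and are not part of the mature particle, did not pass in either fit. Psmd10 had 39.1, 42.8, 30.1 and 34.4 CPM with formate, against 39.5, 30.9, 25.6 and 31 CPM with PBS. Pair 1 was nearly level and the other 3 were higher with formate, giving a log2 change of 0.21 (SE 0.15, blocked adjusted p 0.0635). In other blocked settings, Psmd10 passed with library size only (edgeR adjusted p 0.0314) and without codes 10 and 11 (0.0323). Psmd5 had 61.5, 64.3, 71.4 and 69.9 CPM with formate, against 70.5, 74.3, 70.6 and 75.4 CPM with PBS, with a log2 change of -0.12 (SE 0.08; blocked adjusted p 0.122); it was the 1 member whose change exceeded the span of the PBS libraries. Psmd9 was at -0.05. The other Psmd genes lay between -0.08 (Psmd4, a ubiquitin receptor) and 0.08 (Psmd13).

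None of the activators passed. Psme1 had 442, 482, 405 and 456 CPM with formate, against 482, 455, 375 and 452 CPM with PBS, a log2 change of 0.02 (SE 0.10). Its partner Psme2 had 343, 396, 310 and 362 CPM with formate, against 351, 331, 280 and 341 CPM with PBS (log2 change 0.12, SE 0.11, blocked adjusted p 0.143). Both were higher in 3 of 4 pairs, and pair 1 was the exception for each. Psme3 had 274, 339, 512 and 460 CPM with formate, against 280, 391, 553 and 501 CPM with PBS. It was lower with formate in 4 of 4 pairs (log2 change -0.12, SE 0.25, blocked adjusted p 0.101), and the library sets differed more than the groups, with a log2 difference of -0.67 in PBS between codes 10 to 14 and codes 1 to 8. Psme4 had 75.2, 64.7, 92.2 and 79.6 CPM with formate, against 78.7, 76.3, 91.9 and 82.2 CPM with PBS. Its blocked log2 change was -0.09 (SE 0.05, adjusted p 0.28), and with the GC correction it was -0.24 (SE 0.05, adjusted p 0.0105), the single activator call under any setting run.

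The promoter sequences below are shown for the called members with a RefSeq promoter and for Psmb5 and Psmb6, the catalytic genes with an antioxidant response element core, the kind of site that NRF1 binds in proteasome genes. They are read 5′ to 3′ on the gene's strand, from RefSeq's GRCm38.p6 table, and positions count back from the RefSeq start. Capitals mark the motifs searched on both strands: CCAAT, bound by NF-Y; CGGAAG, the core of ETS family sites; and TGACNNNGC, the antioxidant response element core. The Psma3 window holds CCAAT at -139, the Psmc6 window holds CGGAAG at -99, and the Psmd14 window holds reverse matches of CCAAT at -159 and CGGAAG at -114. The Psmd2 window holds a reverse CGGAAG at -26, and the Psmb5 and Psmb6 windows hold TGACNNNGC at -47 and -9. The Psma5 window holds none of the 3.
Psma3, chr12:70974463-70974612, plus strand: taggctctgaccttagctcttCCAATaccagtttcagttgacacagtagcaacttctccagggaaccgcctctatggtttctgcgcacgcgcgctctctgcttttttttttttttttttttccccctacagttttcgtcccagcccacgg
Psma5, chr3:108256766-108256925, plus strand: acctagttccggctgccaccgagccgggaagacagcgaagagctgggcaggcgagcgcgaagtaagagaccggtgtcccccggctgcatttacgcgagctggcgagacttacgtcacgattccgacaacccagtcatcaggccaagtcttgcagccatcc
Psmc6, chr14:45329664-45329783, plus strand: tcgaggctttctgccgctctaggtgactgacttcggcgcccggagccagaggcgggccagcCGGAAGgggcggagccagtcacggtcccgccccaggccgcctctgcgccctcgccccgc
Psmd14, chr2:61711534-61711693, plus strand: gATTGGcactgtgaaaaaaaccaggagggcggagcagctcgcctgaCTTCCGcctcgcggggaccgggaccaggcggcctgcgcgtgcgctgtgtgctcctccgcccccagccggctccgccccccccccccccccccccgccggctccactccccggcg
Psmd2, chr16:20651492-20651651, plus strand: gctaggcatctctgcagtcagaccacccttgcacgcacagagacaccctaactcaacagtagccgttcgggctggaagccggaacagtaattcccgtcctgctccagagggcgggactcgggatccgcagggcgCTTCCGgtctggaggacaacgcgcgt
Psmb5, chr14:54618023-54618085, minus strand: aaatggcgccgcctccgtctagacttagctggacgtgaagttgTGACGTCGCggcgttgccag
Psmb6, chr11:70525297-70525356, plus strand: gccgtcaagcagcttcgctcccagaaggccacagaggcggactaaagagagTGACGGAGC

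Over windows from 250 bases before to 50 after the start, 33 of the 40 members matched a RefSeq entry, with 36 promoters. Psma8, Psmb1, Psmb2, Psmb7, Psmc3, Psmd3 and Psmd7 did not. CGGAAG occurred in 21 of 36 member promoters (58.3%), against 31% of the promoters of genes tested. The share was 14 of 18 (77.8%) for base and lid, 5 of 13 (38.5%) for core and 2 of 5 (40%) for activators. CCAAT occurred in 13 of 36 (36.1%), against 38.1% of promoters of genes tested, with 7 of 13 (53.8%) for core and 27.8% for base and lid. TGACNNNGC occurred in 6 of 36 (16.7%; Psmb5, Psmb6, Psmc6, Psmd12, Psmd9 and Psme4), against 14.3%. These are letter matches with no test, and nothing about binding follows from them. Of the called members whose windows hold CGGAAG, Psmc6 and Psmd14 rose and Psmd2 fell in the blocked fit.

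Ratios within a library do not depend on the scaling of libraries. The summed CPM of core genes over base and lid genes was 0.980, 0.937, 0.731 and 0.812 in formate replicates 1 to 4, against 0.909, 0.807, 0.693 and 0.770 in the PBS libraries. It was higher with formate in 4 of 4 pairs, by 1.06-fold to 1.16-fold, while the groups overlapped (0.865 ± 0.114 with formate and 0.795 ± 0.0899 with PBS, SD, n = 4 each). Psmd14 over Psmd3, lid subunits that moved in opposite directions, was 1.35, 1.42, 0.725 and 0.951 with formate, against 1.14, 0.878, 0.540 and 0.725 with PBS. Because Psmd14 was higher and Psmd3 lower in every pair, that ratio had to be higher in 4 of 4 pairs. The step was 1.19-fold to 1.62-fold, but the PBS ratio in replicate 1 exceeded the formate ratios in replicates 3 and 4. These ratios were chosen with the changes known and were given no test.

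The interferon-inducible catalytic subunits give the counterpart of Psmb5, Psmb6 and Psmb7. Psmb8, which takes the place of Psmb5, had 375, 369, 276 and 346 CPM with formate, against 456, 392, 296 and 384 CPM with PBS. All 4 pairs were lower with formate, and the blocked fit called it lower (log2 change -0.15, SE 0.05, edgeR adjusted p 0.041). Psmb10, which takes the place of Psmb7, averaged 58.2 ± 4.72 CPM with formate and 65.3 ± 5.04 CPM with PBS (SD, n = 4 each) and was lower in the blocked fit (log2 change -0.17, SE 0.05, adjusted p 0.0354). Psmb9 was at -0.02 in the blocked fit (adjusted p 0.83). None of the 3 passed in the unpaired fit. The blocked fit called 7.52% of all genes lower, and 19.5% of all genes were lower in 4 of 4 pairs. These 3 genes were not followed under the other blocked settings.

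The ratio of Psmb5 to Psmb8 was 0.533, 0.616, 0.707 and 0.606 with formate, against 0.456, 0.527, 0.624 and 0.574 with PBS, higher with formate in 4 of 4 pairs by 1.06-fold to 1.17-fold. Psmb6 over Psmb9 was higher in 4 of 4 pairs by 1.01-fold to 1.18-fold, and Psmb7 over Psmb10 in 3 of 4. Group ranges overlapped for each of the 3 ratios. Psmb8 alone was lower in 4 of 4 pairs and Psmb6 alone higher in 4 of 4, so these ratios are not separate results. They were given no test, and the share of such ratios over other gene pairs was not computed.

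**Figure D3:**
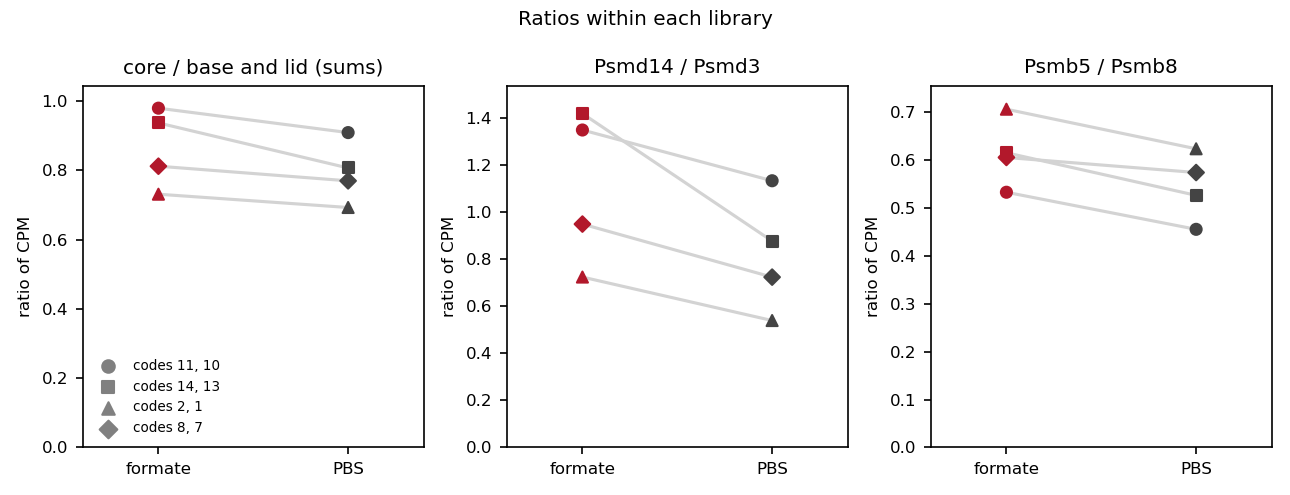
Ratios of CPM within each library for the summed core over base and lid genes, Psmd14 over Psmd3, and Psmb5 over Psmb8; formate is on the left, PBS on the right, and lines join the pairs. Every line is lower on the PBS side, by 1.19-fold to 1.62-fold for Psmd14 over Psmd3, whose opposite changes in every pair fix that direction.

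Companion genes of the proteasome were followed from lists by role, and none passed in the unpaired fit. In the blocked fit, 1 of 7 assembly factors and inhibitors was higher and 1 lower, where the same fit called 5.35% of all genes higher and 7.52% lower. Psmg4, an assembly chaperone of the core, averaged 32.5 ± 6.1 CPM with formate and 26.7 ± 3.57 CPM with PBS (log2 change 0.28, SE 0.07, edgeR adjusted p 0.0134). Psmf1, a proteasome inhibitor, averaged 50.8 ± 5.93 CPM with formate and 58.8 ± 4.27 CPM with PBS (log2 change -0.22, SE 0.05, adjusted p 0.0139). Of 6 genes tested for receptors and enzymes bound to the proteasome, the deubiquitinase Uchl5 was lower (-0.18, adjusted p 0.0195) and none was higher.

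Among 12 shuttle factors and segregase genes, 2 were lower in the blocked fit, beside 7.52% of all genes. Vcp, the ATPase that extracts ubiquitinated proteins, averaged 579 ± 109 CPM with formate and 705 ± 114 CPM with PBS (log2 change -0.29, SE 0.05, adjusted p 0.00261), and the shuttle factor Rad23b was at -0.18 (adjusted p 0.0208).

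NRF1, encoded by Nfe2l1, is the transcription factor that raises proteasome genes when degradation is impaired. Nfe2l1 itself had a blocked log2 change of -0.07 (adjusted p 0.366). Of the 12 tested genes of its list, Bach1, a repressor at antioxidant response elements, was higher (18.8 ± 1.81 CPM with formate and 15.8 ± 0.71 CPM with PBS, log2 change 0.25, SE 0.07, adjusted p 0.0343), and Vcp, which also stands on this list, was lower. The blocked fit called 5.35% of all genes higher and 7.52% lower, and companion genes were not followed under its other settings. The median unpaired log2 changes of the 6 lists ran from -0.16 (immunoproteasome) to -0.04 (assembly factors).

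Among the 38 expressed members, the signed log2 change ran with annotated transcript length. Genes with shorter transcripts had the more positive values (Spearman rho -0.57 with the mean transcript length, -0.55 with the longest transcript, -0.34 with GC content). Across the 13200 tested genes with an annotated length the same rho was 0.00 for length and -0.24 for GC content. The points share all 8 libraries and are not independent, so the rho is a description without a test. Both lengths cover all annotated transcripts of a gene, noncoding ones included, and lengths of coding transcripts alone were not used. The part of transcript length or of RNA quality in the subunit values was not tested.

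**Figure D4:**
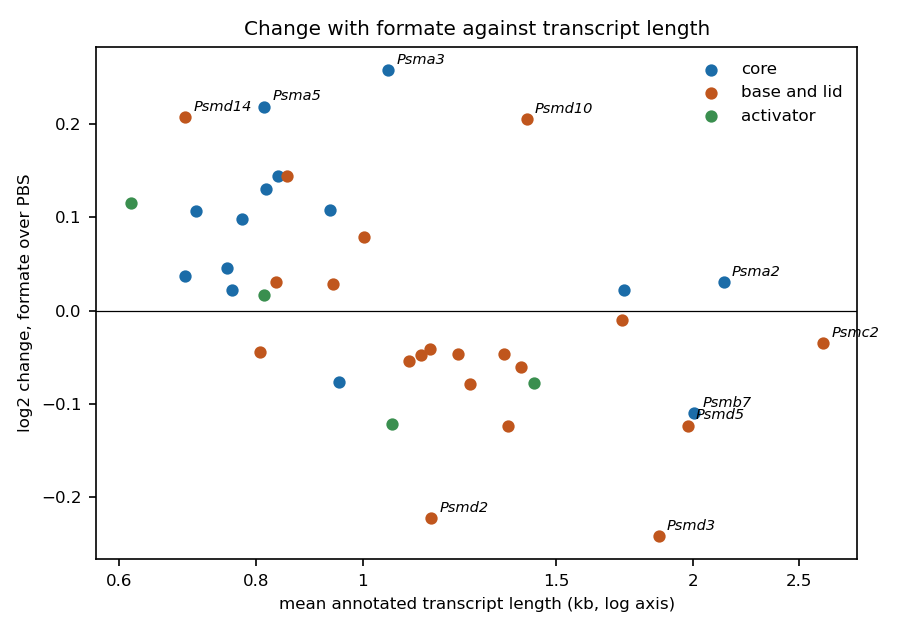
Unpaired log2 change of formate over PBS against mean annotated transcript length in kilobases (log axis) for the 38 expressed members, coloured by class. Core genes sit mostly at short lengths and above 0, and Psmd3, at 1.86 kb and -0.24, is the lowest point.

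Levels can be compared between genes only per length, so CPM was divided by the mean annotated transcript length and rescaled to the same total in every library, as for TPM. On this scale Psme1 and Psme2 had the highest levels of the 38 in PBS, at 689 ± 32.2 with formate and 670 ± 47.2 with PBS for Psme1 and 719 ± 55.8 with formate and 653 ± 41.3 with PBS for Psme2 (SD, n = 4 each); these neighbours did not differ beyond their spread. Psma7 followed, with 605 ± 71 with formate and 539 ± 49.7 with PBS, and Psmb4 with 530 ± 11.1 with formate and 509 ± 14.6 with PBS. At the low end stood Psme4 (68.5 ± 11.8 with formate and 71.1 ± 8.48 with PBS) and the chaperones Psmd9, Psmd5 and Psmd10, which ranged from 27.7 to 48.2 in PBS. The median level was 409 with formate and 362 with PBS for the alpha genes, 343 with formate and 333 with PBS for the beta genes, 309 with formate and 294 with PBS for the ATPases, and 259 with formate and 264 with PBS for the 11 Psmd genes that are not chaperones. These medians rest on the length used. With the longest annotated transcript they were 472 with formate and 426 with PBS for the alpha genes and 488.5 with formate and 465 with PBS for the beta genes, which puts beta above alpha. For the ATPases they were then 292 with formate and 309.5 with PBS, and for the 11 Psmd genes 245 with formate and 235 with PBS, so for both the order of formate and PBS turned. With that length Psme1 stood at rank 8 in PBS and Psme2 at rank 1.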

How the data were processed

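PolyA RNA of 8 libraries was sequenced with the Illumina Stranded mRNA kit as paired reads of 58 bases, per the labels' protocols. The authors deposited 1 table of estimated counts per gene; the submitters' processing notes name Trimmomatic, MultiQC, kallisto, GRCm38 and mm10, and the sources used here give no transcriptome release, strand setting or filter. Of the deposited expected counts above 0, 56.7% had a decimal part of any size, and all were rounded. Groups come from the treatment label. The 40 members were found by symbol, and all passed the low-count filter.

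The test was edgeR 4.0.16 (R 4.3.3, limma 3.58.1) with TMM scaling, filterByExpr and a robust quasi-likelihood fit over 13299 genes, with Benjamini-Hochberg adjustment and a threshold of 0.05; DESeq2 1.42.0 was an alternative. The unpaired fit is the main one. The blocked fit pairs neighbouring title codes, which no label states to belong together; deviations from group means correlated within each pair (pair 1 0.656, pair 2 0.37, pair 3 0.653, pair 4 0.369, by replicate number). Libraries of the same set that are not neighbours also correlated (0.27 to 0.373), and code 7 did so with code 2 (0.373) as much as with its neighbour, code 8. Across sets every correlation was negative, which centring on group means partly forces once values within a set are positive. No 2 libraries of a group agreed within sampling noise (smallest chi-square per degree of freedom 22.5). CPM used TMM library sizes.

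Genes given with every library value were those past the threshold in either fit, the catalytic and activator genes, and the 2 of each class with the smallest unadjusted p in each direction; companions were named where they passed, apart from 1 that is not reported here. Transcript lengths and shared 31-base words came from GENCODE M21 (GRCm38), which holds 34630 of 35072 gene IDs, and promoters from RefSeq. Lengths, also those behind the levels per length, were taken over all annotated transcripts of a gene, noncoding ones included. The members and lists were chosen with earlier results of these data known.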

Additional observations from a re-analysis of the deposited data

Results flagged for a closer look

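Psmc6 in PBS replicate 3 was flagged because it lay far below the other PBS libraries, at 176 CPM against 220 to 222 CPM. The gap was 0.942 of the group's range. Chance flags about 5% of such groups of 4, and how many groups were screened is not given here. The pair of this library (formate replicate 3, 194 CPM) was also the lowest of its group. Without the pair, the blocked log2 change of Psmc6 had an adjusted p of 0.157 (edgeR). Among PBS libraries, replicate 3 also had the lowest core median log2 deviation (-0.181). For base and lid genes its median deviation was 0.021, and PBS replicate 1 was lowest (-0.105).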

How the results depend on the processing

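The count of members past the threshold was 0 in each direction and class under every unpaired setting run, including each library left out in turn (0 to 0). With the replicate block, core genes higher numbered 2, and 3 with GC offsets, 6 with library size only, 2 without codes 7 and 8, 3 without codes 10 and 11, 1 without codes 13 and 14 and 0 without codes 1 and 2. Base and lid genes higher numbered 2 with the block, 3 with library size only, 1 without codes 7 and 8, 2 without codes 10 and 11, and 0 with GC offsets, without codes 1 and 2 and without codes 13 and 14. Base and lid genes lower numbered 2 with the block and in each of its alternatives, except 1 without codes 1 and 2. Activators lower numbered 1 with the block and GC offsets. All blocked calls over 13299 genes numbered 1711, against 337 without codes 1 and 2 and 502 without codes 13 and 14.

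Leaving out 1 library at a time, the core median ran from 0.01 to 0.13, the base and lid median from -0.09 to 0.03 (positive without formate replicate 1 or PBS replicate 4) and the activator median from -0.06 to 0.02. With library size only the medians were 0.11, -0.01 and 0.01. Within codes 1 to 8 they were 0.05, -0.01 and 0.02, and within codes 10 to 14 they were 0.06, -0.06 and -0.06.

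Of the 16 members given with every library value, whose changes were recomputed under each setting, signs turned without any call for 3; signs of the other members were not followed one by one. Psmb5 was at -0.014 with the block without codes 13 and 14, -0.029 to 0.058 with 1 library left out (negative without formate replicate 2 or PBS replicate 3) and -0.003 within codes 1 to 8. Psme1 was at -0.002 with the block without codes 1 and 2, -0.054 to 0.068 with 1 library left out (negative without formate replicate 2 or PBS replicate 3) and -0.006 within codes 10 to 14. Psme3 ran from -0.278 to 0.02 with 1 library left out (positive without formate replicate 1 or PBS replicate 3). The causes were not tested. Precision rests on 4 libraries a group and on 918 to 20446 counts per expressed member and library.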
